A study of Mus musculus with 4 samples.

Results

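GABA-A receptors are the chloride channels through which GABA inhibits neurons, and 7 of their subunit genes were followed through the cell classes of the mouse ventromedial prefrontal cortex (vmPFC). The genes were listed by symbol and comprised 4 alpha subunits (Gabra2, Gabra3, Gabra4 and Gabra5), 2 beta subunits (Gabrb1 and Gabrb2) and the delta subunit (Gabrd). They are 7 of the 31053 genes in the count matrices and 7 of the 19 genes of the receptor family there. All 7 were present in every matrix and passed the filter on low counts in every comparison. The other 12 genes of the family entered only as sums and counts.

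A GABA-A receptor is a ring of subunits, usually of alpha and beta subunits joined by a gamma or a delta subunit. The alpha subunit shapes how strongly GABA and benzodiazepines act and where in the cell the receptor sits, alpha2 being typical of synapses and of the axon initial segment and alpha5 largely of the membrane outside synapses. The delta subunit combines mainly with alpha4 in the forebrain, in receptors outside synapses that respond to ambient GABA and to neurosteroids.

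The mice were male C57BL/6 animals that received, at 8 weeks of age, rAAV2-retro viruses coding for EGFP and a short barcode in 5 targets of the vmPFC, namely AI, DMS, MD, BLA and LH. The virus enters axon terminals and is carried back to the cell body, and its EGFP and barcode are driven by a short CAG promoter. The prelimbic and infralimbic areas were dissected and read by droplet sequencing in 3 unsorted libraries, each from 1 mouse and all run on 1 chip, and in 1 library of EGFP-sorted cells pooled from 3 mice. All animals carried all 5 viruses, so none of the groups is an uninjected control.

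The unsorted libraries held 8040, 7443 and 7243 cell barcodes with 87809114, 83039497 and 83851094 UMIs (unique molecular identifiers, each standing for 1 captured transcript end), and the sorted library held 2075 with 54728191. The authors' annotation gave a subtype to 9368 excitatory neurons, 2816, 2486 and 2463 of them from the unsorted libraries and 1603 from the sorted one. Inhibitory cells were taken as unannotated barcodes with at least 4 UMIs of Gad1 and Gad2 together and at most 3 of Slc17a7, which gave 443, 453 and 382 cells from the unsorted libraries and 5 from the sorted one. This rule uses Slc17a7 and Gad1, so their values describe the selection of inhibitory cells and do not check it. Slc17a7, the vesicular glutamate transporter, had 704 to 1255 CPM (UMIs per 1000000 UMIs of the summed cells, mean of the unsorted libraries) in the 7 subtypes and 11.9 in inhibitory cells, where Gad1 had 1051 CPM against 1.16 to 7.41 in the subtypes. Median depth was 21343.5 to 23213 UMIs per excitatory neuron in the unsorted libraries, 31669 in the sorted library and 13277 to 14101 in unsorted inhibitory cells. Pairs of libraries shared 5 to 30 cell barcodes.

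The positions of the genes are given on GRCm38. Gabra2 (ENSMUSG00000000560) lies at chr5:70957597-71095849 on the minus strand, Gabra4 (ENSMUSG00000029211) at chr5:71569749-71658308 on the minus strand and Gabrb1 (ENSMUSG00000029212) at chr5:71658113-72149037 on the plus strand. Gabra4 and Gabrb1 thus start head to head and overlap by 196 bp at their 5′ ends, while the 3′ ends that these libraries read lie at the far sides of the pair. The other 4 lie apart, Gabra5 (ENSMUSG00000055078) at chr7:57407672-57510059 on the minus strand, Gabrb2 (ENSMUSG00000007653) at chr11:42419757-42629028 on the plus strand, Gabra3 (ENSMUSG00000031343) at chrX:72432681-72656848 on the minus strand and Gabrd (ENSMUSG00000029054) at chr4:155384980-155398112 on the minus strand.

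The sequence before the start of Gabra2 is shown because this gene separated the subtypes most widely. It is the 250 bases upstream of the RefSeq start (GRCm38.p6, chr5:71095850-71096099, minus strand), with the only GC box, GGGCGG read on either strand (CCGCCC on the other), in capitals.
Gabra2 upstream: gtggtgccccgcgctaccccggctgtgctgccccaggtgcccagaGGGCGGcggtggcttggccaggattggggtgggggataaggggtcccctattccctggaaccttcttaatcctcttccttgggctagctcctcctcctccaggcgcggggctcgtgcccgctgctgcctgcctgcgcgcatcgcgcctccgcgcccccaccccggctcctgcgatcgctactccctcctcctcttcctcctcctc
The GC box begins 205 bases before the start. Such a box was in 32.7% of the 32851 RefSeq upstream windows of this length, and the GC content of the Gabra2 window was 70.0% against a median of 52.4% over all windows. The match is a description of the sequence, and no binding was measured.

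Subunit levels were compared over sums of cells, 1 sum per library and class. Each subtype was set against the mean of the other 6 with edgeR's quasi-likelihood test, and a gene was called where its p-value, adjusted by Benjamini-Hochberg over all genes tested, was under 0.05 and its log2 fold change was 0.5 or more in either direction. The authors had formed the subtypes by clustering the same cells on their expression, so these p-values speak only to how repeatable a difference was over the 3 libraries, 1 mouse each. UMI counts of 3′ ends need no correction for length, but capture can differ between genes, so levels are compared between classes and not between genes.

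Gabra2, the alpha subunit of many cortical synapses, was the member with the widest range, highest in the superficial subtype L2/3-Calb1 and lowest in the deep subtype L6-Syt6. In L2/3-Calb1 the 3 unsorted libraries had 354, 326 and 343 CPM, in L5-Bcl6 263, 274 and 249.7 CPM and in L2/3-Rorb 164, 166 and 166 CPM. L5-S100b had 103, 103 and 92.8 CPM and L6-Npy 90.3, 99.9 and 97.4 CPM. L5-Htr2c had 34.9, 26.5 and 33.3 CPM and L6-Syt6 24.3, 25.4 and 24.3 CPM. Neighbours in this order did not overlap between libraries, except for L5-S100b and L6-Npy, and the highest mean was 13.8-fold the lowest. Against the other subtypes the log2 fold change was 1.99 (SE 0.045, adjusted p 1.51e-44) in L2/3-Calb1, 1.62 (SE 0.045, adjusted p 7.04e-40) in L5-Bcl6 and 0.81 (SE 0.043, adjusted p 2.42e-25) in L2/3-Rorb. It was -2.31 (SE 0.050, adjusted p 2.24e-46) in L6-Syt6 and -2.04 (SE 0.095, adjusted p 4.17e-28) in L5-Htr2c. The 2 subtypes in the middle of the order were not called.

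Gabra5, known for extrasynaptic receptors of hippocampal and deep cortical pyramidal neurons, ran the other way between these extremes. L6-Syt6 had 143, 138 and 135 CPM in the 3 unsorted libraries, and L2/3-Calb1 had 19.5, 26.6 and 16.0 CPM. L5-Bcl6 followed L6-Syt6 with 84.3, 86.4 and 76.6 CPM and L5-S100b with 80.8, 86.2 and 80.2 CPM. Every library of L6-Syt6 lay above every library of the other subtypes, and every library of L2/3-Calb1 below them, with means 6.71-fold apart. The remaining subtypes, L2/3-Rorb (69.9 ± 1.80 CPM), L6-Npy (58.4 ± 3.49) and L5-Htr2c (45.2 ± 0.696; mean ± SD, n = 3 throughout), did not overlap each other. The log2 fold change was 1.42 (SE 0.032, adjusted p 1.9e-45) in L6-Syt6, -1.90 (SE 0.11, adjusted p 7.98e-24) in L2/3-Calb1 and -0.62 (SE 0.10, adjusted p 1.9e-07) in L5-Htr2c. L5-S100b, at 0.51 (SE 0.045, adjusted p 2.96e-15), and L5-Bcl6, at 0.50 (SE 0.069, adjusted p 9.73e-09), were called just past the fold limit, and each fell below it under other settings with an adjusted p that stayed small. Without unsorted replicate 3 the value was 0.47 in L5-S100b and 0.50, just under the limit, in L5-Bcl6, where it was 0.47 without replicate 1.

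**Figure D1:**
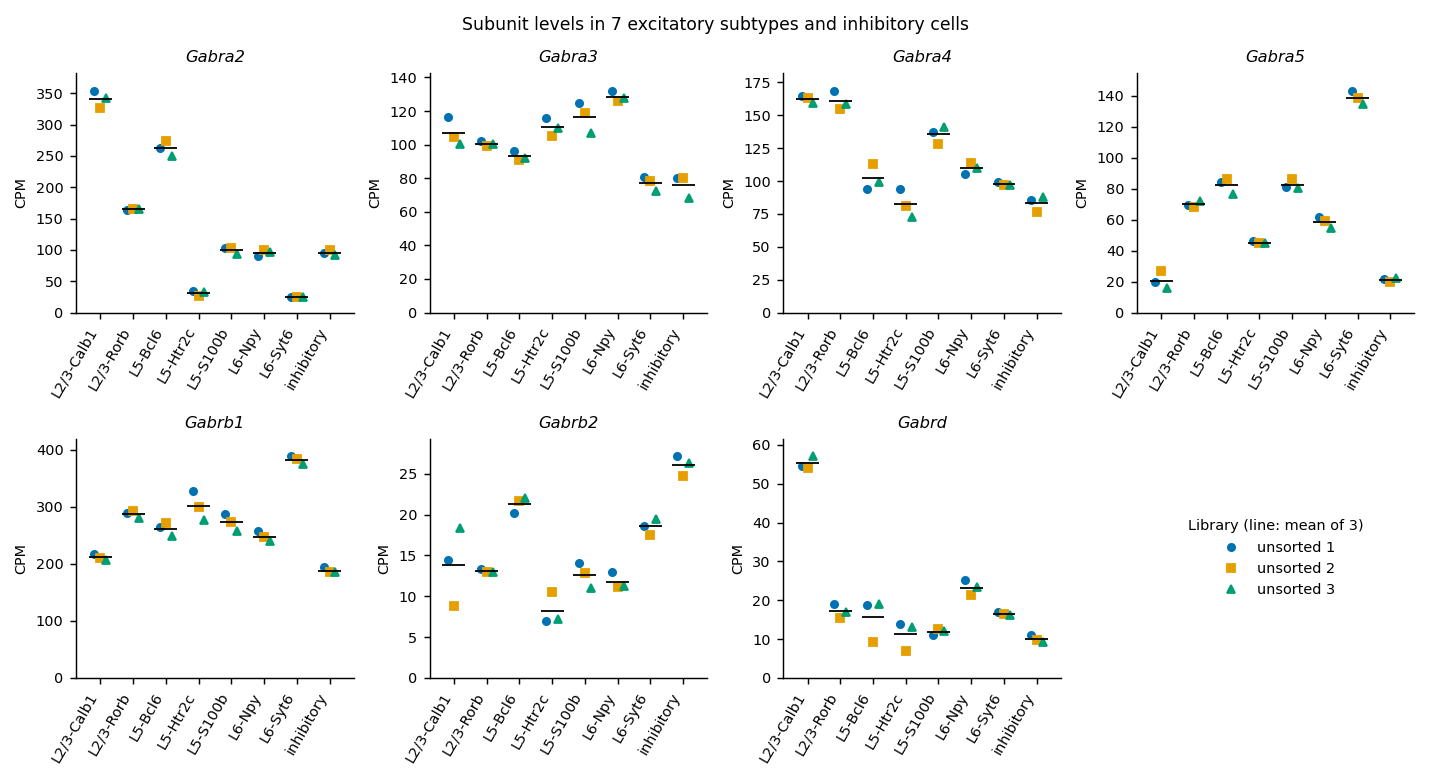
CPM (linear axes from 0) of each subunit in the 7 excitatory subtypes and in inhibitory cells. Each marker is 1 unsorted library and each line the mean of 3. Gabra2 falls from 341 CPM in L2/3-Calb1 to 24.7 in L6-Syt6, Gabra5 is highest in L6-Syt6 at 139, and Gabrd stands out in L2/3-Calb1 at 55.2.

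Gabra3, an alpha subunit of deep cortical layers and of monoaminergic and thalamic reticular neurons, had the narrowest range over the subtypes of the 7 members. L6-Npy was highest with 132, 126 and 128 CPM and L6-Syt6 lowest with 80.6, 78.6 and 72.2 CPM, and these 2 deep subtypes differed 1.67-fold. The other 5 subtypes had means of 93.0 to 117 CPM, and L5-S100b, L5-Htr2c, L2/3-Calb1 and L2/3-Rorb overlapped from neighbour to neighbour. The log2 fold changes of L6-Npy, 0.39 (SE 0.038, adjusted p 1.99e-13), and of L6-Syt6, -0.43 (SE 0.029, adjusted p 6.32e-21), had small adjusted p-values but stayed under the fold limit, so Gabra3 was not called in any of the 7 subtypes.

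Gabra4, the usual partner of the delta subunit, was highest in both superficial subtypes. The libraries had 165, 163 and 159.7 CPM in L2/3-Calb1 and 169, 155 and 159 CPM in L2/3-Rorb, which overlapped. L5-S100b followed with 137, 128 and 141 CPM, and the lowest values were those of L5-Htr2c, 93.7, 80.9 and 72.4 CPM. All libraries of the L2/3 subtypes lay above all libraries of the deeper ones. Gabra4 was called higher in L2/3-Rorb, with a log2 fold of 0.51 (SE 0.044, adjusted p 1e-15), and lower in L5-Htr2c, with -0.69 (SE 0.076, adjusted p 1.22e-11). In L2/3-Calb1 the value of 0.49 (SE 0.057, adjusted p 7.4e-11) was just under the fold limit. That of L2/3-Rorb was just over it, and the call was lost without unsorted replicate 1 (0.47) or 3 (0.49).

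The alpha subunits were also expressed as shares of the summed UMIs of these 4 genes, which does not depend on the rest of the transcriptome. Gabra2 made up 54.0%, 52.6% and 55.4% of the alpha UMIs in the 3 libraries of L2/3-Calb1 and 7.01%, 7.48% and 7.40% in those of L6-Syt6. Gabra5 made up 2.98%, 4.28% and 2.58% in L2/3-Calb1 and 41.2%, 40.8% and 41.1% in L6-Syt6. The groups did not overlap for either gene. L5-Htr2c was the subtype with the highest share of Gabra3, 41.0% ± 1.11, beside 11.7% ± 1.27 for Gabra2. Gabra4 had the narrowest range of shares, from 18.9% ± 1.31 in L5-Bcl6 to 32.4% ± 0.920 in L2/3-Rorb. The 7 members together made up 40.0% ± 0.615 of the UMIs of all 19 family genes in L5-Bcl6 and 55.5% ± 1.37 in L2/3-Calb1, so the shares leave out a large part of the family.

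**Figure D2:**
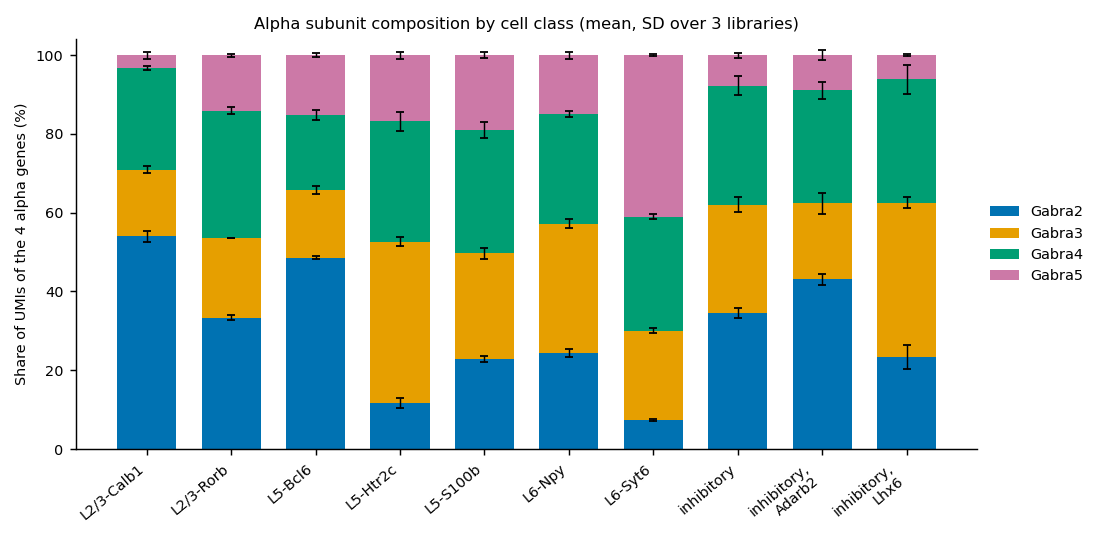
Share (%) of Gabra2, Gabra3, Gabra4 and Gabra5 in the summed UMIs of these 4 genes by cell class. Bars are means of the 3 unsorted libraries and error bars the SD of each share. Gabra2 takes 54.0% in L2/3-Calb1 and 7.30% in L6-Syt6, where Gabra5 takes 41.0%.

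Gabrb1, a beta subunit shared by neurons and glia, was highest in L6-Syt6, with 388, 383 and 374 CPM. It was lowest among the subtypes in L2/3-Calb1, with 218, 211 and 207 CPM. The libraries of these 2 subtypes stood apart from all others, and the 5 subtypes between them, with means of 248 to 302 CPM, overlapped from neighbour to neighbour. The log2 fold change was 0.61 (SE 0.020, adjusted p 3.65e-37) in L6-Syt6 and -0.50 (SE 0.042, adjusted p 3.81e-16) in L2/3-Calb1, the latter at the fold limit and under it with DESeq2 or without unsorted replicate 2 (-0.49 in each). Astrocytes also carry Gabrb1, and 2 of 5 astrocyte markers, Slc1a3 (20.1 CPM) and Slc4a4 (30.7 CPM), had their highest subtype value in L2/3-Calb1, where Gabrb1 was lowest. The others, Gja1, Aqp4 and Aldh1l1, had 0, 0.658 and 1.98 CPM there, beside 2206, 814 and 149 in astrocytes.

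Gabrb2, a beta subunit of fast synaptic receptors, was captured with few UMIs. L5-Bcl6 had 20.2, 21.7 and 22.1 CPM, L6-Syt6 18.6, 17.5 and 19.5 CPM and L5-Htr2c 6.99, 10.5 and 7.18 CPM. L5-Bcl6 lay above every other subtype in all libraries, and L2/3-Calb1 spread most, with 14.4, 8.85 and 18.4 CPM from 84 UMIs in all. Gabrb2 was called higher in L5-Bcl6, at 0.77 (SE 0.14, adjusted p 2.93e-06), and in L6-Syt6, at 0.59 (SE 0.070, adjusted p 3.37e-11), and lower in L5-Htr2c, at -0.96 (SE 0.21, adjusted p 0.000144).

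Gabrd, the delta subunit of extrasynaptic receptors, was high in 1 subtype. L2/3-Calb1 had 54.5, 54.1 and 57.1 CPM, and L6-Npy, the next, had 25.2, 21.2 and 23.5 CPM. The other superficial subtype, L2/3-Rorb, had 19.1, 15.4 and 17.0 CPM. L2/3-Calb1 and L6-Npy were each apart from the rest, and the 5 lower subtypes, with means of 11.3 to 17.2 CPM, overlapped from neighbour to neighbour. The log2 fold change was 1.78 (SE 0.11, adjusted p 2.37e-22) in L2/3-Calb1, -0.73 (SE 0.10, adjusted p 1.69e-09) in L5-S100b and -0.90 (SE 0.19, adjusted p 4.45e-05) in L5-Htr2c. In L6-Npy it was 0.40 (SE 0.094, adjusted p 0.000344), under the fold limit. L2/3-Calb1 was thus the subtype in which Gabra2 and Gabrd were both highest and Gabra5 and Gabrb1 both lowest.

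The counts of members called were read against all genes tested. In L2/3-Calb1, 4 of 7 members were called, 2 higher and 2 lower, where 21.0% of the 13448 genes tested were called. In L6-Syt6, 4 of 7 were called, 3 higher and 1 lower, against 25.6% of genes. In L5-Htr2c, 5 of 7 were called, all lower, against 27.7% of genes. This subtype was also the shallowest, with medians of 13886.5 to 15638 UMIs in the unsorted libraries against 17473 to 19425 in L2/3-Calb1, the next. The median log2 fold change of the members was -0.69 in L5-Htr2c and -0.012 over all genes, while in the other 6 subtypes the medians of the members lay between -0.14 and 0.047. In L5-Bcl6, 3 of 7 were called against 18.2% of genes, in L2/3-Rorb 2 of 7 against 18.5%, and in L5-S100b 2 of 7 against 16.8%. In L6-Npy, edgeR and DESeq2 called 0 of 7 members, 4 of which had an unadjusted p under 0.05, against 17.4% of genes.

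**Figure D3:**
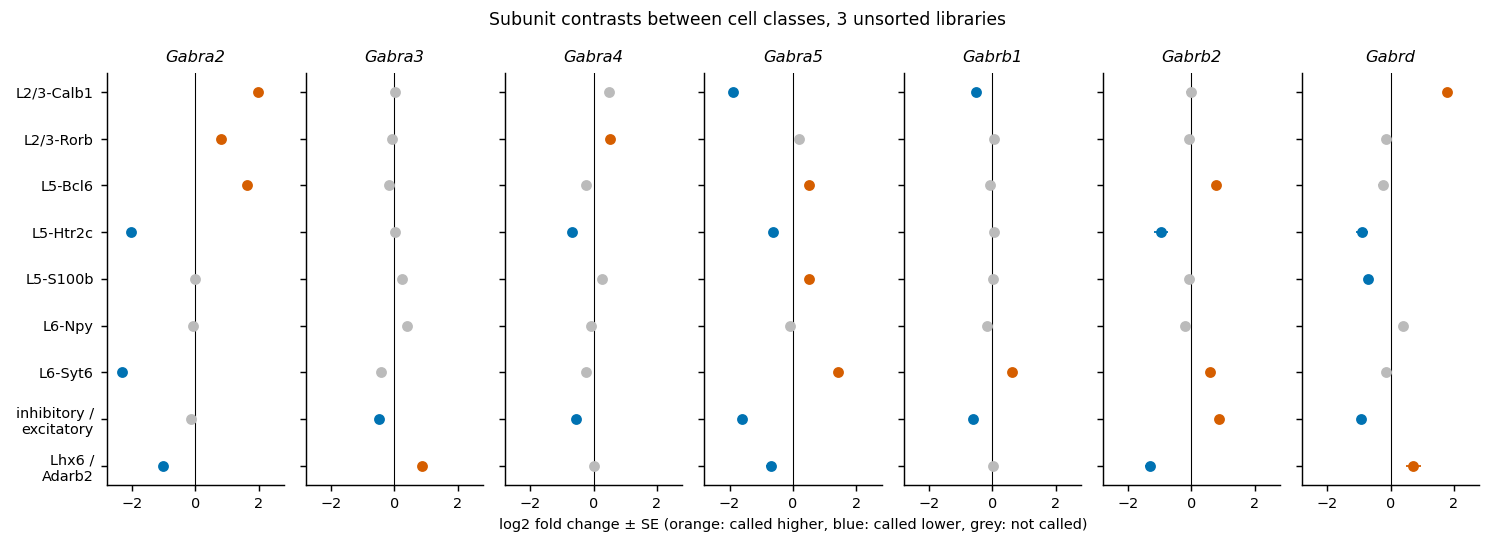
log2 fold change of each subunit in 9 contrasts, 7 of 1 subtype against the mean of the other 6, 1 of inhibitory cells against the mean of the 7 subtypes and 1 of inhibitory cells with Lhx6 against those with Adarb2. Bars are SEs, most of them smaller than the points. Gabra2 spans from 1.99 in L2/3-Calb1 to -2.31 in L6-Syt6, whereas Gabra3 stays within 0.5 of 0 in every subtype.

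The members differed in how they varied together over the 24 sums (8 classes in 3 libraries, so that the points share libraries and depths). Pearson's r of log2(CPM + 1) was 0.85 for Gabra5 and Gabrb1, 0.62 for Gabra2 and Gabra4 and 0.59 for Gabra4 and Gabrd. It was -0.72 for Gabra3 and Gabrb2, -0.62 for Gabra2 and Gabrb1 and -0.40 for Gabra2 and Gabra5. The neighbouring pair Gabra4 and Gabrb1, whose 5′ ends overlap, had -0.058. Among 9143 genes with a mean of at least 10 CPM, the most like Gabra2 were Tle1, Thap12 and Spcs3 (r = 0.94, 0.93 and 0.93), and the most like Gabra5 were A830018L16Rik, Hs3st2 and Ldha (0.94, 0.92 and 0.92). Those for Gabrb1 were Rab26, Adora1 and Epn2 (0.97, 0.94 and 0.93), and those for Gabrd were Rfx3, Psd and Samd1 (0.91, 0.89 and 0.89). For Gabra4 they were Mpp2, Ptprj and Sirt7 (each 0.94), for Gabra3 Cbx6, Kctd4 and Erc2 (0.89, 0.86 and 0.86) and for Gabrb2 Vwc2, Frmpd3 and Nrxn3 (0.83, 0.83 and 0.82).

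The share of single neurons with a UMI was read after thinning to 10000 UMIs, without the shallower neurons, which kept 311 of 317 in L2/3-Calb1, 558 of 564 in L2/3-Rorb, 299 of 315 in L5-Bcl6, 302 of 317 in L5-Htr2c, 1015 of 1096 in L5-S100b, 829 of 837 in L6-Npy and 4230 of 4319 in L6-Syt6. Gabra2 was detected in 92.6% of L2/3-Calb1 and 20.3% of L6-Syt6 neurons (99.4% and 37.1% before thinning), and Gabra5 in 15.5% and 72.6% (29.4% and 90.5% before thinning). Gabrd was detected in 42.6% of L2/3-Calb1 neurons and in 9.40% to 18.5% of the other subtypes. Below L2/3-Calb1 the shares of Gabrd did not keep the order of its CPM, L6-Npy having 17.0%. Free RNA also puts UMIs into cells, and its level was read in microglia, which had a median of 4080.5 to 4318 UMIs. Microglia and the other non-neuronal cells were chosen for few UMIs of Slc17a7, Gad1 and Gad2, which can lower the background they show. Thinned to 2000 UMIs, Gabra2 was found in 0.494% (13 of 2631 cells, interval 0.289% to 0.844%) of microglia and in 4.70% (203 of 4316 cells, interval 4.11% to 5.38%) of L6-Syt6 neurons, the lowest share among the neurons apart from L5-Htr2c. Gabra5 was in 0.190% (5 of 2631 cells, interval 0.0812% to 0.444%) of microglia and 5.05% (16 of 317 cells, interval 3.13% to 8.04%) of L2/3-Calb1 neurons, and Gabrd in 0.190% (5 of 2631 cells, interval 0.0812% to 0.444%) of microglia and 1.89% (6 of 317 cells, interval 0.870% to 4.07%) of L5-Htr2c neurons. The intervals (Wilson, 95%, counting error only) of these low neuronal shares did not reach those of microglia. Endothelial cells had a Gabrd UMI in 0.526% (5 of 950 cells, interval 0.225% to 1.23%) and mural cells in 0.647% (2 of 309 cells, interval 0.178% to 2.33%), however, and both of these intervals overlapped that of L5-Htr2c, so its share of Gabrd was not told apart from background. Both also overlapped that of inhibitory cells (1.21% to 2.71%), and the mural one those of L2/3-Rorb (2.03% to 4.99%) and L5-S100b (2.02% to 4.02%). In L5-Htr2c, Gabra2 (1.95% to 6.11%) and Gabrb2 (0.870% to 4.07%) overlapped mural cells too (up to 2.33% and 1.23%). These shares were not told apart from the mural background either, though they did not reach microglia.

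Inhibitory cells differed from excitatory neurons in 6 of the 7 members, with Gabrb2 higher and 5 others lower, against 36.1% of genes called. Gabra5 had 21.8, 19.5 and 22.6 CPM in the 3 libraries of inhibitory cells, below every subtype but L2/3-Calb1, and Gabrb1 had 193, 185 and 185 CPM, below all 7 subtypes. Gabrb2 had 27.1, 24.7 and 26.3 CPM, above all 7. Gabrd had 11.1, 9.77 and 9.23 CPM, which overlapped the lowest subtypes. Gabra3 had 79.9, 79.9 and 68.0 CPM, which overlapped L6-Syt6, and Gabra4 had 85.5, 76.7 and 87.5 CPM, which overlapped L5-Htr2c. Against the mean of the subtypes, the log2 fold change was 0.88 (SE 0.088, adjusted p 8.4e-14) for Gabrb2, -1.60 (SE 0.070, adjusted p 4.62e-30) for Gabra5 and -0.94 (SE 0.11, adjusted p 3.09e-11) for Gabrd. It was -0.61 (SE 0.029, adjusted p 2.46e-28) for Gabrb1, -0.56 (SE 0.044, adjusted p 9.64e-18) for Gabra4 and -0.50 (SE 0.042, adjusted p 8.68e-17) for Gabra3, the last of them at the fold limit and under it without unsorted replicate 3 (-0.48). Gabra4 fell just under it without replicate 2 (-0.50). Gabra2, with 95.2, 99.4 and 91.3 CPM, was not called, and its direction depended on the weight of the subtypes, with -0.14 (SE 0.042, adjusted p 0.00221) against their mean and 0.25 (adjusted p 3.72e-07) against 1 sum of all excitatory neurons, in which L6-Syt6 held 4319 of 7765 neurons. The members took a smaller part of the family in inhibitory cells, 35.9% ± 0.893 of the UMIs of the 19 genes, and the median log2 fold change was -0.56 over the members and 0.028 over all genes. All 5 microglia markers (C1qa, C1qb, C1qc, Csf1r and Cx3cr1) were higher in inhibitory cells, 8.42 to 33.3 CPM against 1.50 to 4.90 in excitatory neurons, beside 2088 to 7285 in microglia, where the members had 0.427 to 7.07 CPM.

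Within inhibitory cells, the members separated the 2 main developmental classes, the Lhx6 class of the medial ganglionic eminence (421 cells with Lhx6 and without Adarb2) and the Adarb2 class of the caudal one (795 cells with Adarb2 and without Lhx6). Sst had 9091 CPM in the first and 4.45 in the second, and Vip 3.86 and 5765. Gabra3 had 114, 96.1 and 96.1 CPM in the Lhx6 class and 53.6, 66.1 and 47.2 CPM in the Adarb2 class, and Gabra2 had 59.9, 64.0 and 57.3 CPM and 127, 126 and 118 CPM. Gabrb2 had 13.4, 13.0 and 16.8 CPM in the Lhx6 class and 38.6, 33.1 and 34.7 CPM in the Adarb2 class. The classes did not overlap for these 3 genes. For Gabrb2 the Lhx6 class lay below L5-Bcl6 and L6-Syt6, and for Gabra3 it lay within the range of the subtypes. The contrasts of all inhibitory cells for these 2 genes thus do not describe each class. By edgeR, 5 of 7 members were called, against 21.0% of 11515 genes. Those higher in the Lhx6 class were Gabra3, with a log2 fold of 0.87 (SE 0.10, adjusted p 3.59e-08), and Gabrd, with 0.72 (SE 0.23, adjusted p 0.0156). Those lower were Gabrb2, with -1.31 (SE 0.15, adjusted p 5.55e-08), Gabra2, with -1.03 (SE 0.080, adjusted p 3.27e-11), and Gabra5, with -0.69 (SE 0.16, adjusted p 0.000895). The calls of Gabra5 and Gabrd were lost with DESeq2 (adjusted p 0.186 and 0.447), and that of Gabrd also without unsorted replicate 1 (adjusted p 0.154). Gabra4, with means of 82.0 and 82.1 CPM, and Gabrb1, with 188 and 184, were not called. Among the alpha UMIs, Gabra2 took 43.1% ± 1.43 in the Adarb2 class and 23.4% ± 2.93 in the Lhx6 class, and Gabra3 took 19.3% ± 2.74 and 39.2% ± 1.40.

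Outside neurons, astrocytes and oligodendrocyte precursors were, of the 6 classes examined, those in which a subunit exceeded 10 CPM. A non-neuronal cell was named by UMIs of at least 3 of 5 markers of its class and at most 1 of any other. It also had at most 1 UMI of Slc17a7 and at most 1 of Gad1 and Gad2 together. Astrocytes had 687, 698 and 655 CPM of Gabrb1, above every neuronal class, 154, 113 and 107 CPM of Gabra2 and 55.6, 51.8 and 58.8 CPM of Gabra4. None of the 411 astrocytes had a Gabrd UMI, and thinned to 2000 UMIs these were 0 of 371 cells, which allows a share of up to 0.809% (3 counts, counting error only). This limits cells with a UMI at that depth, not cells that express the gene. Oligodendrocyte precursors had 107, 92.1 and 81.1 CPM of Gabrb1, 63.1, 59.0 and 46.6 of Gabra2 and 39.3, 41.6 and 27.9 of Gabra3, whereas Gabra5 and Gabrd had 2.11 and 0.222 CPM. Microglia, oligodendrocytes, endothelial and mural cells had at most 7.07 CPM of any member. The excitatory marker Slc17a7 had 12.8 to 23.9 CPM over the 6 classes, held down by its limit of 1 UMI per cell.

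Genes that build and serve the inhibitory synapse were looked at beside the receptor, in a list of 21 genes for scaffolds, trafficking factors, chloride transporters and GABA handling. In L2/3-Rorb, 5 were called higher and 2 lower, where 18.5% of all genes were called. Among the higher was Plcl1, a protein of receptor trafficking, with a mean of 34.9 CPM, while the GABA transaminase gene Abat was lower, with a log2 fold change of -1.15. The inhibitory markers Gad1 and Gad2 were also highest among the subtypes there (7.41 and 7.01 CPM), and their part in these counts was not tested. In L5-Htr2c, where 5 subunits were lower, 2 of the 21 were higher and 5 lower against 27.7% of all genes, led by Plcl1, which had 1 UMI over the 317 neurons and so no usable fold, and Gabbr2, a subunit of the metabotropic GABA-B receptor (-2.79). In L6-Syt6, 1 was higher, the GABA transporter gene Slc6a11 (1.87), and 2 were lower, Plcl1 (1.27 CPM) and Slc12a5, the neuronal chloride exporter (-0.82), a share of the list below the 25.6% of all genes. L2/3-Calb1 had 2 higher, Plcl1 (14.4 CPM) and the receptor auxiliary subunit Shisa7 (log2 fold change 0.60), and 0 lower, against 21.0% of all genes. L5-Bcl6 had 1 higher, Abat (1.76), and 3 lower, led by Slc6a11 (-3.02), against 18.2% of all genes. L5-S100b had 4 higher, among them Plcl1 (17.5 CPM) and Gabbr2 (0.91), and 2 lower, against 16.8%. L6-Npy had 2 higher, Gabbr2 (0.65) and Slc6a11 (0.62), and 1 lower, Abat (-1.33), a share below the 17.4% of all genes. The median of the list was -0.14 in L5-Htr2c and between -0.10 and 0.15 in the other 6. Inhibitory cells had 6 higher, among them Abat (2.60), and 3 lower, led by Igsf9b (-1.63), against 36.1% of all genes. The Lhx6 class had 2 higher and 3 lower than the Adarb2 class, led by Slc6a11 (-1.82), against 21.0%. Of the 12 other family genes, 6 passed the filter in the subtype contrasts, and 0 to 3 of these were called in each direction.

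Whether the subunits differed between neurons with and without a detected viral barcode was asked within 4 subtypes. In each of these, every library had at least 10 neurons with 5 or more barcode UMIs and 10 with none. Having none does not mean absence of virus. The paper reports that zero counts of the barcodes were abundant in the expression libraries, and the EGFP-sorted library held barcode-zero neurons too. The comparison is thus of detected against undetected barcode. No member was called. In L5-S100b, 0 of 7 were called by edgeR and by DESeq2, against 2.70% of genes, with 2 at an unadjusted p under 0.05 by each tool. Those of edgeR were Gabra5 and Gabra2. Gabra5 had a log2 fold of 0.34 (SE 0.12, adjusted p 0.0828) and was higher in barcode-high neurons of 2 of 4 libraries. Barcode-high neurons had 97.4, 101 and 89.2 CPM in the 3 unsorted libraries, with 127 CPM in the sorted one for Gabra2. Barcode-zero neurons had 128, 131 and 113 CPM in the 3 unsorted libraries, with 136 CPM in the sorted one. The ranges overlapped over the 4 libraries, but within each of the 4 the value was lower in barcode-high neurons, and the log2 fold of -0.28 (SE 0.082, adjusted p 0.0371) stayed under the fold limit. In this subtype the barcode-high neurons of the unsorted libraries were also deeper, with medians of 25553.5 to 29004 UMIs against 19306.5 to 23544, and the part of depth in the difference was not tested.

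In L6-Syt6, 0 of 7 were called by both tools, against 1.67% of genes, with 1 at an unadjusted p under 0.05 by edgeR and 0 by DESeq2. This 1 was Gabrd, for which barcode-high neurons had 18.7, 18.0 and 18.0 CPM in the 3 unsorted libraries, with 14.5 CPM in the sorted one. Barcode-zero neurons had 16.8, 15.5 and 15.4 CPM in the 3 unsorted libraries, with 12.3 CPM in the sorted one. It was higher in barcode-high neurons of 4 of 4 libraries, with a log2 fold of 0.24 (SE 0.069, adjusted p 0.0659). In L6-Npy, 0 of 7 were called against 0.801% of genes, and in L2/3-Rorb 0 of 7 against 0.139%, by both tools, with 1 member at an unadjusted p under 0.05 by edgeR and 0 by DESeq2 in each. Those 2 were Gabra3 in L6-Npy, at 0.22 (SE 0.074, adjusted p 0.181), and Gabra5 in L2/3-Rorb, at 0.37 (SE 0.13, adjusted p 0.359), both higher in barcode-high neurons of 4 of 4 libraries. Barcode-high neurons were deeper here too, with medians in the unsorted libraries of 24582 to 25878.5 UMIs against 21684 to 23159 in L6-Syt6, 20923.5 to 23120 against 19662 to 20122 in L2/3-Rorb and, overlapping, 19806.5 to 20921 against 17807 to 20475 in L6-Npy, and the part of depth was not tested. Over the 4 subtypes the SEs ran from 0.046 for Gabra5 in L6-Syt6 to 0.28 for Gabrb2 in L2/3-Rorb. The fold limit lay within 2 SEs of 0 for Gabrb2 and Gabrd in L2/3-Rorb and for Gabrd in L5-S100b. The barcode feature pools the 5 viruses here, so targets were not compared.

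The difference of the barcode effect between subtypes was tested for the 6 pairs of these subtypes. No member passed in any pair, with 5 of 42 values at an unadjusted p under 0.05. The shares of genes called were 3.79% for L6-Syt6 against L5-S100b, 1.78% against L6-Npy and 0.960% against L2/3-Rorb. They were 0.886% for L5-S100b against L6-Npy, 0.455% for L5-S100b against L2/3-Rorb and 0.0166% for L6-Npy against L2/3-Rorb.

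**Figure D4:**
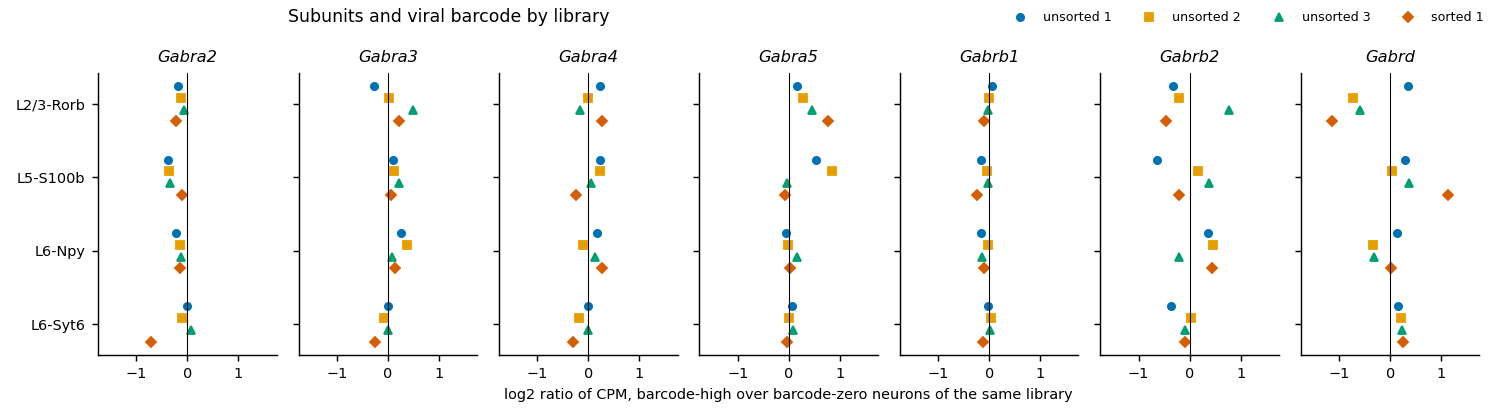
log2 ratio of CPM in barcode-high over barcode-zero neurons of the same library, for each subunit in 4 subtypes. Each marker is 1 of 4 libraries, and points left of 0 are lower in barcode-high neurons. Gabra2 lies left of 0 in 4 of 4 libraries of L2/3-Rorb, L5-S100b and L6-Npy, and no member was called.

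The EGFP-sorted library was set beside the range of the 3 unsorted libraries in 6 subtypes, without a test, since there is 1 sorted library and sort, animals and depth cannot be told apart. L5-Htr2c, with 4 sorted neurons, was left out. Gabra2, Gabra3 and Gabrb1 lay above the unsorted range in 6 of 6 subtypes, as did 25.1% of the 10456 genes with a mean of at least 5 CPM. Gabrd lay below it in 6 of 6, as did 13.9% of genes. In L2/3-Calb1 the sorted library had 29.9 CPM (interval 20.6 to 42.1) of Gabrd against 54.5, 54.1 and 57.1 in the unsorted ones, and in L6-Npy 11.1 CPM (interval 8.77 to 13.8) against 25.2, 21.2 and 23.5 (exact Poisson intervals, 95%, counting error only). The ratio to the unsorted mean ran from 0.475 in L6-Npy to 0.817 in L6-Syt6. The intervals cleared the unsorted range in 4 of the 6 subtypes and not in L5-Bcl6 or L5-S100b. For Gabra2 the ratios were 1.21 to 1.38, for Gabra3 1.10 to 1.50 and for Gabrb1 1.12 to 1.36, where the median gene had 1.06 to 1.10. Gabrb2 lay above the unsorted range in 5 of 6. Gabra5 lay within it in 5 of 6 subtypes and Gabra4 in 4 of 6, and their ratios ran from 0.882 to 1.05. The order of the subtypes was kept in the sorted library for Gabra2, from 470.1 CPM in L2/3-Calb1 to 29.9 in L6-Syt6, and L2/3-Calb1 remained the highest in Gabrd.

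**Figure D5:**
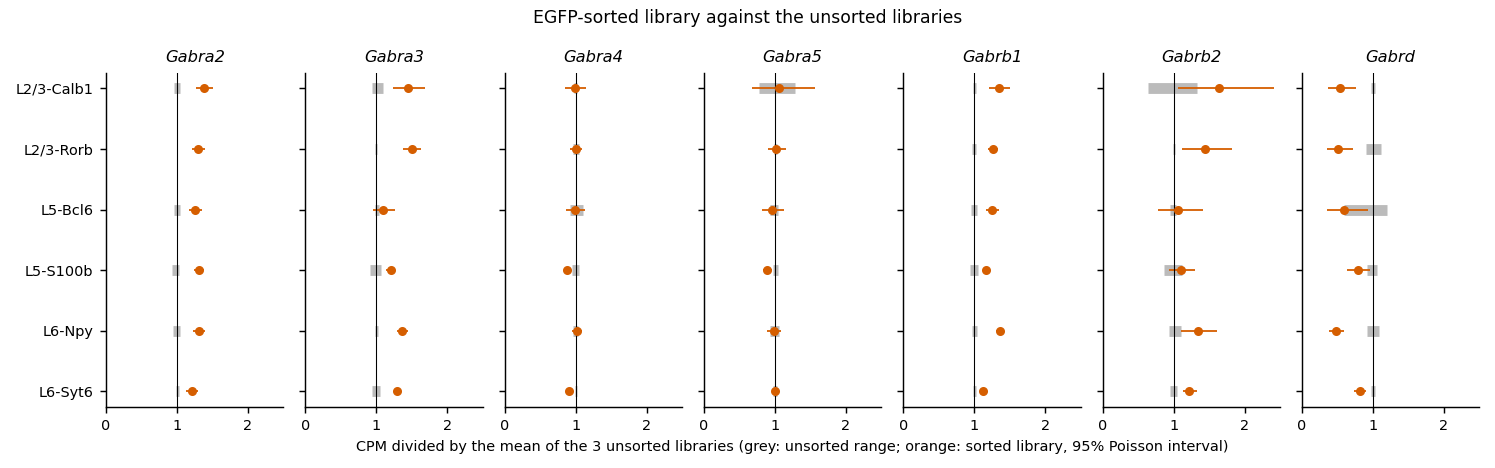
CPM divided by the mean of the 3 unsorted libraries, for each subunit in 6 subtypes (linear axis). Grey bars are the unsorted range and orange points the sorted library with its exact Poisson interval (95%). Gabrd lies left of 1 in all 6 subtypes, between 0.475 and 0.817, and Gabra2 right of 1, between 1.21 and 1.38.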

How the data were processed

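Raw UMI counts were used as deposited. Per the labels and methods, the authors had aligned 10x 3′ libraries with Cell Ranger (version 3.0.2) to mm10 extended by the viral barcodes and, after quality limits and clustering with Seurat (3.1.4) and Scanpy, given each excitatory neuron its subtype. The viral barcode row was left out of library sizes and used only to sort neurons. Unannotated cells passed the same limits (500 to 8000 genes, 1000 to 60000 UMIs, under 20% mitochondrial), and no doublet caller was run.

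Counts were summed per library and class and fitted with edgeR 4.0.16 (TMM, filterByExpr, quasi-likelihood) in R 4.3.3, with the library as a block because sums of 1 library share its preparation. DESeq2 1.42.0 was an alternative. On simulated counts for the L6-Syt6 contrast (12851 genes, a single assumed dispersion, no library effect), the fit recovered 96 of 100 2-fold and 99 of 100 4-fold changes, with 0 false calls. This does not cover the smaller subtypes, the Lhx6 against Adarb2 contrast or the barcode fits. The text names the 7 members, partner genes from among the 4 called ones of largest change per comparison (1 gene is not reported here, and CPM stand in for folds of Plcl1, near 0 in L5-Htr2c) and the 3 genes most like each member. Members and lists were chosen with earlier results of these data known. Precision follows from the library totals in the report, and intervals cover counting error only.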

Additional observations from a re-analysis of the deposited data

How the results depend on the processing

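Of 50 member differences with an unadjusted p under 0.05, 436 of 466 values under other settings kept their direction and side of the limits, 29 kept the direction but lost the call, and 1 turned, Gabra2 in inhibitory cells at 0.25 against 1 excitatory sum. Most lost calls lay near the fold limit. The members called fell from 2 to 1 in L5-S100b with DESeq2, with RLE size factors or with the sorted library added, and in L2/3-Rorb with no filter or with neurons thinned to 10000 UMIs. Leaving out 1 library gave 1 to 2 members in both. With DESeq2 the Lhx6 against Adarb2 contrast had 1481 genes and 3 members. The cause was not tested. No member was called for the barcode under any setting, but the counts of genes there, 218 (L6-Syt6), 310 (L5-S100b), 83 (L6-Npy) and 14 (L2/3-Rorb), moved. Without the library block, that is, with no replicate block, they were 75, 56, 0 and 0 (1556, 1044, 406 and 285 at an unadjusted p under 0.05 by edgeR), and the block changed no other count by over 1.5 times. With 1 or more barcode UMIs they were 27, 202, 31 and 6. DESeq2 gave 142 (L5-S100b), 11 (L6-Npy) and 0 (L2/3-Rorb) (132 at an unadjusted p under 0.05), and no filter gave 28 in L2/3-Rorb. Leaving out 1 library gave 28 to 309, 178 to 289, 45 to 75 and 2 to 33, the lowest without unsorted replicate 2, 2, 3 and 1. Gabrb2 and Gabrd had the fewest UMIs of the members over all excitatory neurons and the largest SEs in the subtype contrasts.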
